A study of Solanum tuberosum with 8 samples.

Results

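GAST1 is the gibberellin-regulated transcript of contig MICRO.11045 on the POCI potato array, and both probes whose name starts with that contig number, MICRO.11045.C2 and MICRO.11045.C1, were taken as its members, 2 of the 42034 potato probes. Both passed the filter on low values and were among the 36435 probes tested. The array annotation used in the study describes both as similar to the tomato GAST1 protein precursor. Whether they read 1 gene, 2 alleles or 2 genes is not given in the sources used here.

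Leaf RNA of potato (*Solanum tuberosum* cv Solara) was hybridized to 8 one-colour arrays in 4 groups of 2. The groups were *Stpfld252* after 3 days of water withdrawal (drought), *Stpfld252* kept watered (control), wild-type siblings (WT) after the same 3 days, and WT kept watered. *Stpfld252* is 1 transgenic line, chosen in the study for its high content of flavodoxin (Fld), an electron shuttle of cyanobacteria that plants lack. A constitutive promoter of cauliflower mosaic virus drives in it an *Anabaena* Fld gene, which a leader peptide from a pea chloroplast enzyme (ferredoxin-NADP+ reductase) directs to the plastids. WT plants carry no such gene, and the transgene itself was not analysed here. All plants were raised from tuber slices for 4 weeks in growth chambers, and young fully expanded leaves of the fifth node were pooled from 10 plants per genotype and treatment. The 2 arrays of a group are 2 pools of such leaves, from independent experiments by the paper's account, so p-values measure the spread between pools and not between plants. How the 10 plants were divided over the pools is not given in the paper.

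GAST1 was first described in tomato as a transcript that accumulates after gibberellin treatment, and abscisic acid (ABA) counteracts that accumulation there. It gave its name to the GAST/GASA family of small, secreted, cysteine-rich peptides, which includes the snakins of potato. Gibberellins promote the growth of shoots and leaves. They are made from ent-kaurene by oxidases, with GA20 oxidases at a late step, and are inactivated by GA 2-oxidases. DELLA proteins such as GAI repress gibberellin responses until the hormone triggers their breakdown. ABA is the main hormone of water deficit, and 9-cis-epoxycarotenoid dioxygenase (NCED) catalyses a key step of its synthesis.

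The sequences tied to GAST1 in the study are the primers of its qRT-PCR assay, which the authors assigned to MICRO.11045.C2. They are shown because they name the transcript that the probe was taken to read, each written 5′ to 3′ in lower case with no part capitalised.
GAST1 forward primer: gctgtgcaaagtgtctgtgtgt
GAST1 reverse primer: agatgatcatgggcactttggg
Each primer is 22 bases long with 11 G or C. The study picked the genes of this assay for their stress response on these same arrays, so the drought response of MICRO.11045.C2 below is not independent evidence for it. By the paper's account, the qRT-PCR itself used leaves from independent experiments of equal drought treatment and plant age. The fold change of GAST differed in size between qRT-PCR and the arrays. The class of response assigned to it, repression by drought in both lines, stayed the same.

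The arrays were of similar quality. Median signal over local background was 3.64 to 4.45 per array, 77.8% to 80.7% of the probes were flagged well above background, and 0 spots were saturated. The replicates of a group correlated with r of 0.9961 to 0.9976 across probes, which are not independent replicates, and 0.291% to 0.494% of the probes differed over 2-fold between them. The leaf marker Rubisco small subunit (RbcS) was well above background on both arrays for 7 of 8 probes in WT drought and 8 of 8 in each other group, with signals of up to 229777 units on an array. The 7 probes of patatin, the storage protein of tubers, stayed between 48 and 570.5 units on all arrays. The 4 drought arrays shared a slide and the 4 control arrays shared another, so that drought and slide cannot be told apart. Within both slides the *Stpfld252* arrays lay at positions 1 and 2 and the WT arrays at positions 3 and 4. A slide effect that is equal in both lines cancels in the difference between their drought responses.

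MICRO.11045.C2 lost nearly all of its signal in drought in both lines. Its median spot signal was 87.5 and 76 units on the *Stpfld252* drought arrays, over a local background of 48 and 51. On the *Stpfld252* control arrays it was 17101 and 16895 units, over a background of 51.5 and 56. The groups are thus far apart, and the drought signals lay close to the glass around the spots while still being flagged well above background. The WT drought arrays gave 72 and 78 units, over a background of 48.5 and 55, against 19569.7 and 18958 units in WT control, over 57.5 and 54.5. The first of the WT control spots was read from the low-gain scan that the scanner uses for bright spots. In both lines the drought and control ranges did not overlap. In whole leaves, fewer cells that express GAST1 and less of its RNA per cell cannot be told apart.

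**Figure D1:**
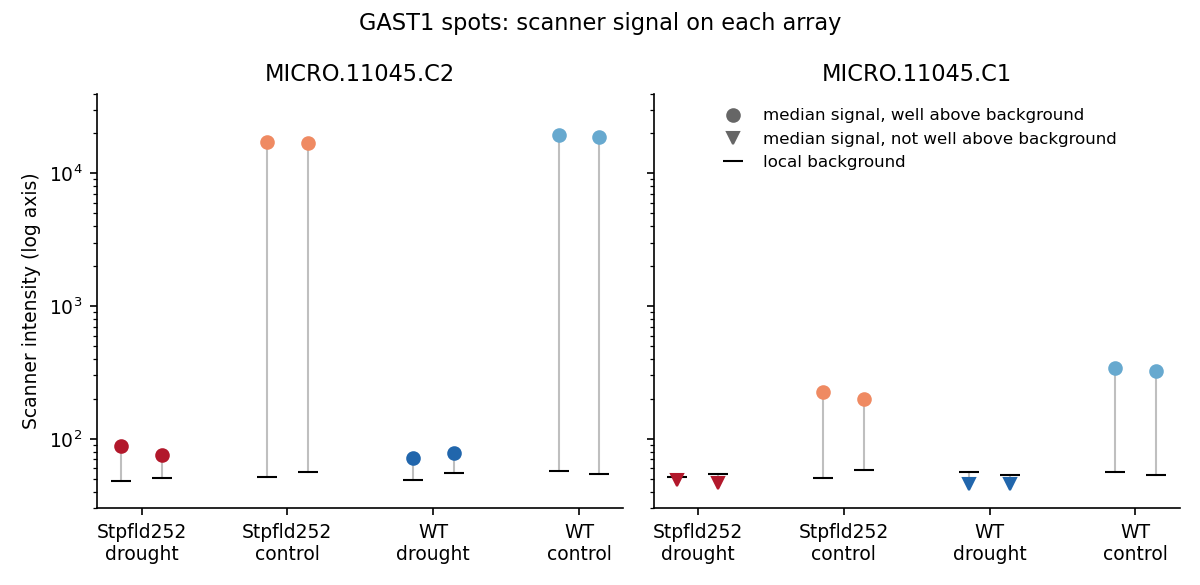
Median scanner signal (log axis, intensity units) of both GAST1 probes on each of the 8 arrays, with the local background of the spot as a black dash and 2 arrays per group. MICRO.11045.C2 lay between 16895 and 19569.7 on the control arrays and between 72 and 87.5 on the drought arrays, and MICRO.11045.C1 was not well above background (triangles) on any drought array.

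After background correction and quantile normalization, MICRO.11045.C2 averaged 5.77 ± 0.263 in *Stpfld252* drought and 13.95 ± 0.0532 in *Stpfld252* control on the log2 scale (SD, n = 2 each). It averaged 5.41 ± 0.0749 in WT drought and 14.46 ± 0.0231 in WT control. GAST1 was therefore strongly repressed by drought in both lines. The log2 change between drought and control was −8.19 in *Stpfld252* (SE 0.124, 95% confidence interval −8.48 to −7.89, limma adjusted p = 1.64e-07) and −9.05 in WT (SE 0.124, interval −9.35 to −8.76, adjusted p = 1.79e-08). In *Stpfld252* this was the lowest change of the 36435 probes, with MICRO.5686.C1 next at −8.04. In WT it came 2nd, after MICRO.5686.C1 at −10.39 and before MICRO.18049.C1 at −8.93. Among probes with at least 1 array well above background in both groups, it was the lowest in *Stpfld252* (of 32943) and in WT (of 32464). MICRO.5686.C1 was not well above background on either WT drought array, so its change there is not measured on both sides.

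The size of the fold rests on how the background under the dim drought spots was treated, while the direction does not. With 50 units added to each corrected signal before the logarithm, the log2 change of MICRO.11045.C2 was −7.24 in *Stpfld252* and −7.92 in WT, still called in both.

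**Figure D2:**
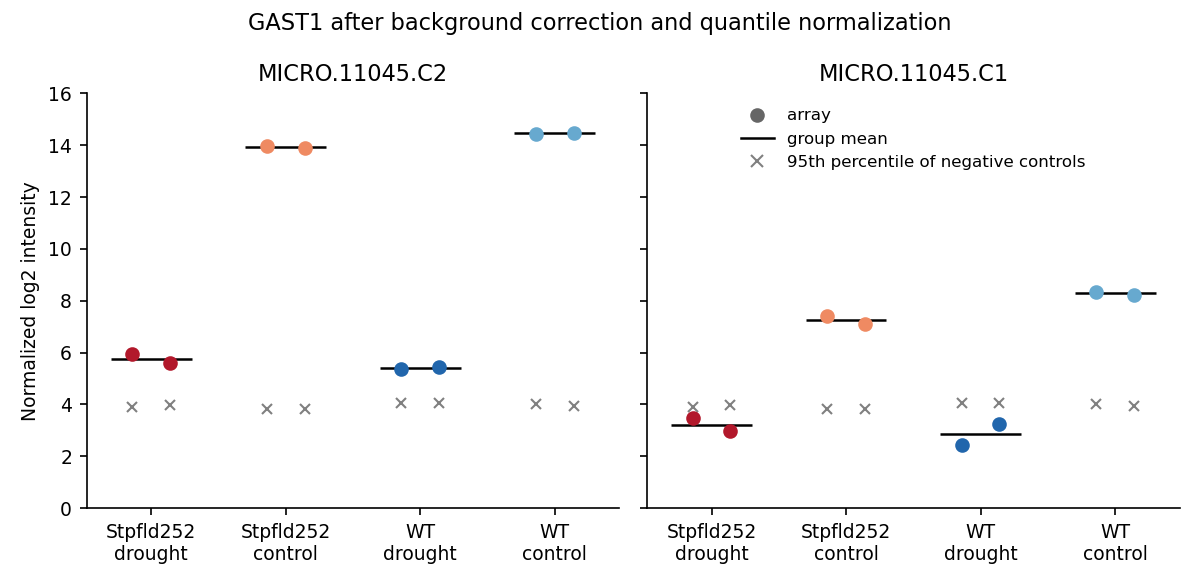
Normalized log2 intensity of both GAST1 probes on each array (points), with the group mean of 2 arrays (line) and crosses at the 95th percentile of that array's negative controls. MICRO.11045.C2 stayed above the negative controls in drought, at 5.36 to 5.95, while MICRO.11045.C1 was below them at 2.45 to 3.48.

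MICRO.11045.C1, the other GAST1 probe, was lost to the background in drought. Its median signal was 49 and 46.5 units on the *Stpfld252* drought arrays and 224 and 198 units on the *Stpfld252* control arrays. In WT it was 45.5 and 46 units in drought and 341 and 323 units in control. The local background was 51 to 58 units, so that all 4 drought spots were dimmer than the glass around them. Since the drought level is only bounded, the signal was at least 9.94-fold lower in *Stpfld252* drought than in *Stpfld252* control (adjusted p = 2.43e-05 for the measured values), and at least 18.7-fold lower in WT drought than in WT control (adjusted p = 3.34e-06). These bounds set drought signals under the 95th percentile of the negative controls to that percentile, and hold for the background correction used here. With 50 units added to each corrected signal, the log2 change was −1.73 in *Stpfld252* and −2.59 in WT, still called in both.

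Both GAST1 probes were thus called lower in drought in *Stpfld252*, where 8.14% of all probes tested were, and in WT, where 10.3% were. MICRO.11045.C1 passed the filter through the control groups alone, which fixes the direction of its change, so its call is not added support. A probe was called at an adjusted p under 0.05 and a change over 2-fold. Since the drop of MICRO.11045.C1 ends at the background, its size cannot be set against that of MICRO.11045.C2.

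The lines differed in GAST1 far less than the treatments did. In watered leaves MICRO.11045.C2 was 0.51 lower on the log2 scale in *Stpfld252* than in WT (13.99 and 13.92 against 14.45 and 14.48, interval −0.80 to −0.22, adjusted p = 0.0158). This difference was under 2-fold and not called, although the lines did not overlap, and 41.1% of all probes had an adjusted p under 0.05 at any size. It was −0.18 (adjusted p = 0.676) with no normalization between arrays, −0.37 (adjusted p = 0.211) with cyclic loess and −0.76 (adjusted p = 0.0625) with spike-in scaling. MICRO.11045.C1 differed in the same direction, with 7.43 and 7.10 in *Stpfld252* control against 8.33 and 8.24 in WT control. Its log2 change of −1.02 (SE 0.278, adjusted p = 0.0243) lay at the edge of the 2-fold limit, was called, and was no longer called without any 1 of the 4 control arrays (−1.18 to −0.85, adjusted p 0.0526 to 0.121) or in 9 of the 16 processing settings that leave all arrays in. Lower calls made up 2.09% of all probes in this comparison.

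In drought the GAST1 signals of the lines lay close together. MICRO.11045.C2 was 5.95 and 5.58 in *Stpfld252* and 5.36 and 5.46 in WT, a log2 difference of 0.36 (interval 0.07 to 0.65, adjusted p = 0.0433) that was under 2-fold and not called. At any size, 53.5% of all probes passed the adjusted p here. The difference was 0.17 without the first *Stpfld252* drought array (adjusted p = 0.181) and 0.55 without the second (adjusted p = 0.00543), and 0.18 (adjusted p = 0.064) with 50 units added to the signals. The scanner signals behind it, 87.5 and 76 units in *Stpfld252* and 72 and 78 units in WT, overlapped between the lines. For MICRO.11045.C1 both lines were at the background in drought and no fold is given (adjusted p = 0.293). The order of the 4 group means for MICRO.11045.C2 in normalized values was therefore WT control, *Stpfld252* control, *Stpfld252* drought and WT drought. No neighbours in that order overlapped, but with 2 arrays per group this does not establish the order of the lines. Neither difference between the lines was called here. Under other processing their adjusted p was up to 0.676 in control and 0.473 in drought.

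The drought repression of MICRO.11045.C2 was smaller in *Stpfld252* than in WT by 0.87 on the log2 scale (SE 0.175, interval 0.46 to 1.28, adjusted p = 0.00762). Of all probes, 37.8% had an adjusted p under 0.05 for this difference at any size. For MICRO.11045.C2 it was under the 2-fold limit and not called. It exceeded 2-fold and was called with median scaling (1.24), cyclic loess (1.37), scaling on the spike-in spots (1.75) and without the second *Stpfld252* drought array (1.05). It was 0.68 with 50 units added to the signals, and 0.96 with no normalization between arrays, where the adjusted p was 0.0888. For MICRO.11045.C1 the difference of 1.39 (adjusted p = 0.0291) was called, as were 6.14% of all probes in the same direction, but its drought side consists of values at the background. Patatin moved with the genotype too. Of its 7 probes, 7 were called higher in *Stpfld252* than in WT in control, where 3.99% of all probes were, and 6 in drought, where 6.15% were, with signals on single arrays of 57 to 268 units in *Stpfld252* drought and 142 to 570.5 in *Stpfld252* control, against 48 to 78 in WT drought and 56 to 123 in WT control. RbcS was called higher in *Stpfld252* for 1 of 8 probes in control and 8 of 8 in drought. The part of these markers in the GAST1 values was not tested.

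**Figure D3:**
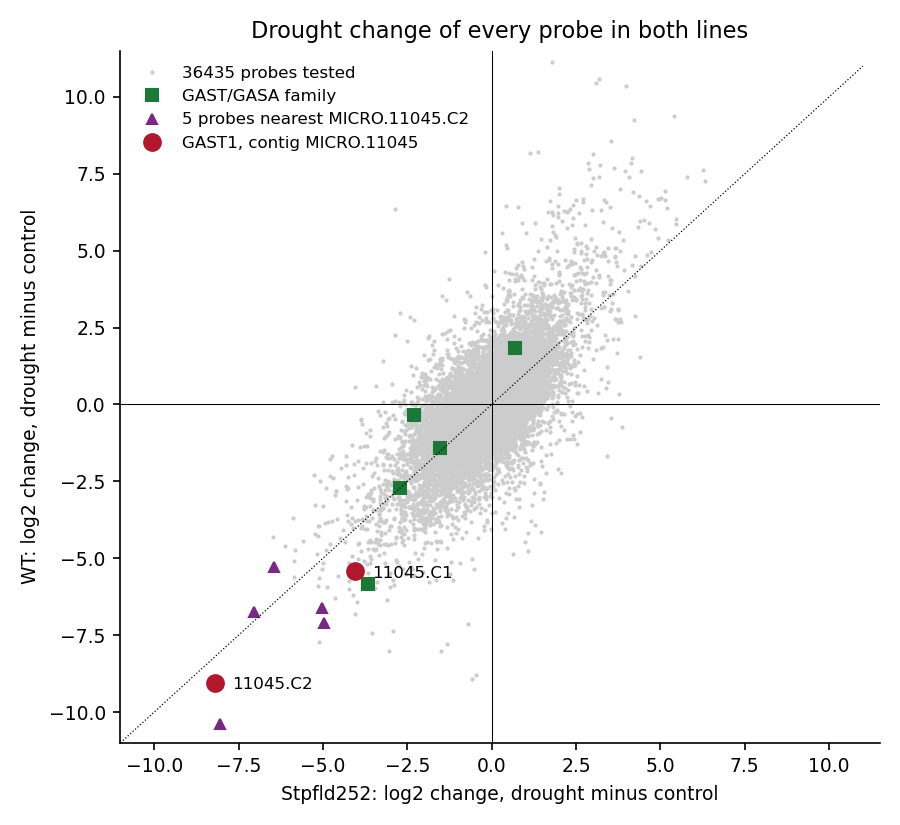
Log2 change between drought and control in *Stpfld252* (horizontal axis) and WT (vertical axis) for the 36435 probes tested (grey), with GAST1, 5 family members and the 5 probes nearest MICRO.11045.C2 marked. MICRO.11045.C2 lies at the lower left end of the cloud, at −8.19 in *Stpfld252* and −9.05 in WT, below the dotted line of equal change.

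The probes most like GAST1 were sought by the root mean square difference between the centred log2 values of the 8 arrays, which share their groups and slides. Nearest to MICRO.11045.C2 were MICRO.5686.C1 with a difference of 0.91, for which no description was at hand, and MICRO.6475.C2 with 0.92, which resembles a lipase/hydrolase of the GDSL type. The other 3 were STMIY86TV (1.33), described as a tryptophan decarboxylase, MICRO.13063.C1 (1.43), an unknown protein, and bf_stolxxxx_0012d10.t3m.scf (1.5), similar to the soybean protein ADR11. Of the 4 drought arrays, MICRO.5686.C1 and STMIY86TV were each well above background on 2, MICRO.13063.C1 on 3 and bf_stolxxxx_0012d10.t3m.scf on 0. The likeness of these probes thus rests in part on background values. MICRO.6475.C2 was well above background on all 4 drought arrays. Its log2 level was 6.93 and 6.96 in *Stpfld252* drought and 14.01 and 13.99 in *Stpfld252* control, and 7.45 and 7.46 in WT drought against 14.17 and 14.26 in WT control. Unlike MICRO.11045.C2, it stood lower in *Stpfld252* than in WT in drought, by −0.51.

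Nearest to MICRO.11045.C1, whose drought values lie at the background, were MICRO.5993.C1 (0.28) and cPRO26A7TH (0.33), both of unknown function, STMCS57TV (0.35), a putative receptor protein kinase, MICRO.16009.C1 (0.36), a pectinesterase, and MICRO.4263.C4 (0.38), a putative heat shock transcription factor. The first 4 were well above background on all 4 drought arrays. Their log2 drought changes were −4.24 to −3.94 in *Stpfld252* and −5.73 to −5.17 in WT.

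The other members of the GAST/GASA family did not share one response. The list holds 5 probes, and since it was drawn from the study's tables of probes called on these arrays, its counts are not independent evidence. In drought, 0 rose, 4 fell and 1 was not called in *Stpfld252* (median log2 change −2.31), and 1 rose, 3 fell and 1 was not called in WT (median −1.43). Of all probes, 5.88% were called higher and 8.14% lower in *Stpfld252* drought, and 8.48% higher and 10.3% lower in WT drought. Over all probes tested the medians were 0.05 in *Stpfld252* and 0.04 in WT.

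MICRO.63.C4, similar to Gip1, a gibberellin-induced gene of petunia, fell in drought in both lines and stayed above background. Its log2 level was 6.97 and 6.89 in *Stpfld252* drought and 10.54 and 10.65 in *Stpfld252* control, and 5.40 and 5.26 in WT drought against 11.17 on both WT control arrays. It fell in drought by 3.66 in *Stpfld252* (adjusted p = 3.24e-07) and by 5.84 in WT (adjusted p = 2.02e-08), and was 1.60 higher in *Stpfld252* than in WT in drought (adjusted p = 8.5e-06). A second Gip1-like probe, bf_mxflxxxx_0037f09.t3m.scf, was not well above background on any drought array. It was 6.56-fold lower in *Stpfld252* drought than in *Stpfld252* control (log2 change −2.71, interval −2.94 to −2.49, adjusted p = 1.31e-06). This is an estimate and not a bound, since its *Stpfld252* drought levels, 4.16 and 4.22, lay above the 95th percentile of the negative controls. In WT drought it was at least 5.65-fold lower than in WT control (adjusted p = 5.78e-07).

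Snakin2 (MICRO.7594.C1), an antimicrobial peptide of potato, differed from GAST1. Its log2 level was 13.09 and 13.10 in *Stpfld252* drought and 15.41 and 15.40 in *Stpfld252* control, against 13.44 and 13.39 in WT drought and 13.75 and 13.76 in WT control. Watered *Stpfld252* leaves stood highest, 1.65 above WT control (adjusted p = 8.96e-06). It fell by 2.31 in *Stpfld252* drought (adjusted p = 6.29e-07) and its change of −0.34 in WT was not called.

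RSI-1 (MICRO.13238.C1), named after an auxin-induced transcript of tomato lateral roots, moved the other way. Its log2 level was 9.30 and 9.46 in *Stpfld252* drought and 8.57 and 8.83 in *Stpfld252* control, against 8.89 and 8.69 in WT drought and 7.01 and 6.90 in WT control. It rose by 1.83 in WT drought (adjusted p = 1.23e-05), its change of 0.68 in *Stpfld252* was not called, and it was 1.74 higher in *Stpfld252* than in WT in control (adjusted p = 7.07e-05). The lowest group was WT control. The GASA5-like probe MICRO.9855.C1 fell by 1.53 in *Stpfld252* (adjusted p = 0.00286) and by 1.43 in WT (adjusted p = 0.00346), and its replicates were less alike, with 11.27 and 11.98 in *Stpfld252* control. MICRO.63.C1 and MICRO.63.C3, further probes of the contig of MICRO.63.C4, lay at 3.42 to 4.90 and 3.82 to 4.40 across the 8 arrays and were called in no comparison. MICRO.63.C1 was well above background on 1 *Stpfld252* control and 2 WT control arrays, and MICRO.63.C3 on no array. Their lack of a call thus comes from readings at or near the background.

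**Figure D4:**
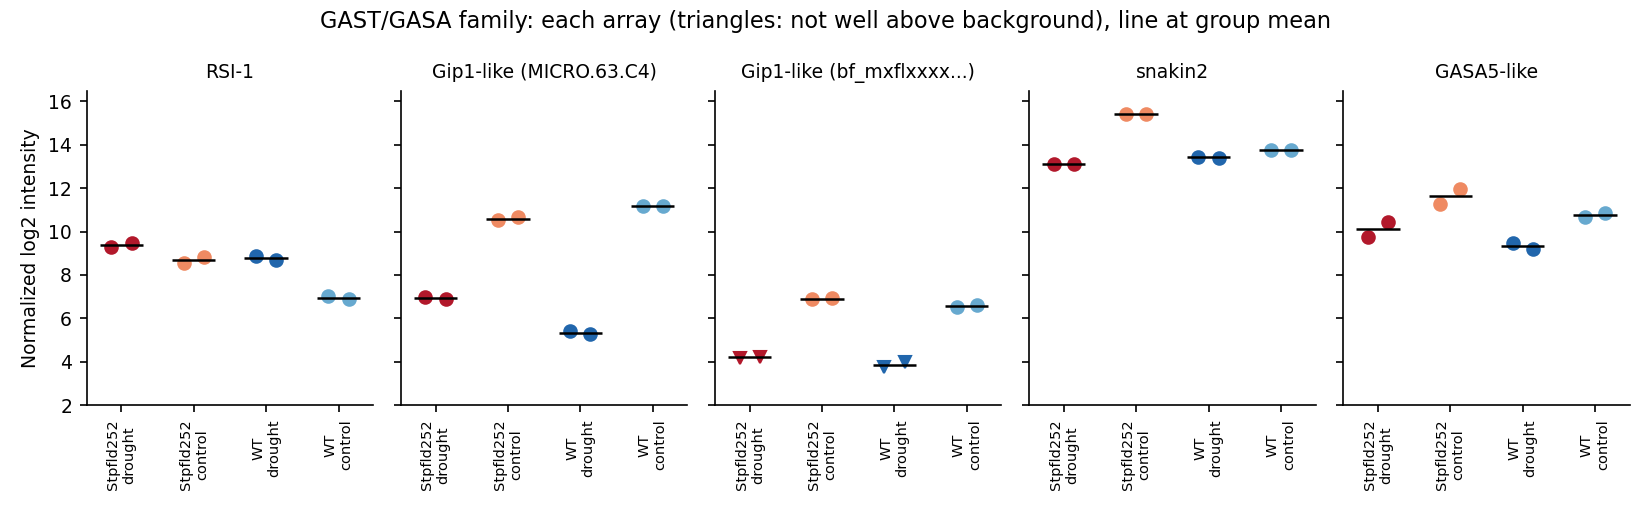
Normalized log2 intensity of the 5 other GAST/GASA family probes on each array, with the group mean of 2 arrays as a line and triangles for spots not well above background. MICRO.63.C4 fell in drought in both lines, snakin2 stood highest in *Stpfld252* control at 15.40 and 15.41, and RSI-1 was lowest in WT control.

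The listed probes of gibberellin synthesis passed the limits for a drought change in WT and not in *Stpfld252*. In *Stpfld252* their log2 changes lay between −0.90 and 0.73, under the 2-fold limit. All 7 probes listed were called in WT, 3 higher and 4 lower (median −1.79), and 0 of 7 in *Stpfld252* (median 0.50), where 14% of all probes were called against 18.8% in WT. Again the list came from probes called on these arrays. The GA20 oxidase MICRO.6620.C1 had a log2 level of 11.23 and 11.31 in *Stpfld252* drought and 10.82 and 10.68 in *Stpfld252* control, against 8.64 and 8.66 in WT drought and 11.54 and 11.61 in WT control. WT drought was the lowest group. Its change was 0.51 in *Stpfld252*, which was not called, and it fell by 2.93 in WT (adjusted p = 1.93e-07), so that the responses differed by 3.44 (adjusted p = 5.1e-06). At the other end, the ent-kaurene oxidase MICRO.2633.C1 rose by 1.34 in WT (adjusted p = 1.69e-05), and its change of 0.73 in *Stpfld252* was not called, nor was the difference of −0.60 between the lines. The difference of responses was called for 4 of the 7 probes, all higher in *Stpfld252*, where 6.14% of all probes were. Besides MICRO.6620.C1 these were MICRO.10941.C1, MICRO.6496.C1 and MICRO.6496.C2, putative oxidoreductases of the GA20 oxidase category named here after their values were seen. In control they were called lower in *Stpfld252* than in WT (−1.27, −1.44 and −1.45). Their differences between the lines in drought, −0.19, 0.64 and −0.06, were not called. The MICRO.6496 probes share a contig, and MICRO.6496.C1 was not well above background on any drought array. MICRO.6496.C1 passed the filter through the control groups alone, so its fall in WT is not added support, and its difference of responses rests on background values.

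GA 2-oxidases, which inactivate gibberellins, were called higher in drought for 1 and lower for 1 of 3 probes in *Stpfld252*, where 5.88% of all probes were higher and 8.14% lower, and higher for 2 of 3 in WT, where 8.48% were. MICRO.7232.C1 had a log2 level of 9.03 and 9.04 in *Stpfld252* drought and 6.29 and 6.21 in *Stpfld252* control, against 9.58 and 9.67 in WT drought and 4.66 and 4.83 in WT control. It rose by 2.79 in *Stpfld252* (adjusted p = 7.15e-07) and by 4.88 in WT (adjusted p = 3.54e-08). Of its 2 WT control spots, 1, at 55.5 units, was not well above background, so the WT change and its difference from *Stpfld252* rest in part on a background value. MICRO.13776.C2 was well above background on the *Stpfld252* control arrays alone and was at least 3.63-fold lower in *Stpfld252* drought (adjusted p = 0.000287), while it was not well above background on any WT array. It passed the filter through *Stpfld252* control alone, which fixes the direction of its fall and of its difference of responses. Its calls are thus not added support. For all 3 probes the drought response was called lower in *Stpfld252* than in WT, with differences of −2.83 to −2.09, as it was for 6.26% of all probes. Only the difference of cSTB42I1TH (−2.83), named here after its values were seen, came from spots well above background on all 8 arrays. Its drought change was −0.16 in *Stpfld252*, not called, and 2.67 in WT.

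Of 7 probes for gibberellin signalling, 3 rose and 2 fell in drought in *Stpfld252* and 0 rose and 3 fell in WT. Of all probes, 5.88% were called higher and 8.14% lower in *Stpfld252*, and 8.48% higher and 10.3% lower in WT. The 2 that fell in *Stpfld252* were both GAI-like probes, which also fell in WT. MICRO.11873.C1 fell by 3.81 in *Stpfld252* (adjusted p = 5.45e-07) and fell by 2.06 in WT (adjusted p = 3.75e-06). MICRO.14034.C1, named here to complete the pair after its values were seen, changed by −1.17 in *Stpfld252* and −1.93 in WT. The highest change in WT was that of MICRO.2042.C2, at 1.06 in *Stpfld252*, which was called (adjusted p = 2.22e-05), and 0.33 in WT, which was not. Of 6 further probes that the annotation puts in the gibberellin-responsive category, 1 rose and 3 fell in *Stpfld252*, and 1 rose and 2 fell in WT, against the same shares of all probes. The extremes in WT were MICRO.16427.C1, with no sequence match, at least 4.80-fold lower in WT drought, and the Cu,Zn superoxide dismutase probe bf_stolxxxx_0056c02.t3m.scf, which rose by 1.59 in WT (adjusted p = 1.96e-06) and changed by −0.32 in *Stpfld252*, not called. MICRO.16427.C1 passed the filter through the control groups alone, which fixes the direction of its change, so its fall in either line is not added support.

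For ABA, both NCED probes were lower in drought and passed the limits in *Stpfld252*, where 8.14% of all probes were called lower, and not in WT, where 10.3% were. MICRO.11321.C1 fell by 1.51 in *Stpfld252* (adjusted p = 1.46e-05), with −0.71 in WT, and bf_mxflxxxx_0012d12.t3m.scf fell by 1.95 in *Stpfld252* (adjusted p = 1.78e-06), with −0.91 in WT. The difference between the lines was called for the second (−1.04, adjusted p = 0.000361) and not for the first (−0.80, under 2-fold). Of 4 ABA-responsive probes, 2 rose and 1 fell in *Stpfld252* and 3 rose and 1 fell in WT, where 5.88% (*Stpfld252*) and 8.48% (WT) of all probes were called higher. MICRO.3733.C1, similar to the AREB factors that bind ABA-responsive promoters, had a log2 level of 12.05 and 12.09 in *Stpfld252* drought and 10.70 and 10.72 in *Stpfld252* control, against 14.11 and 14.12 in WT drought and 10.15 and 10.14 in WT control. It rose by 1.36 in *Stpfld252* (adjusted p = 5.16e-06) and by 3.97 in WT (adjusted p = 3.21e-08). The lowest of the 4 in WT, the ABA-responsive protein-like probe MICRO.11600.C1, fell by 1.42 in WT (adjusted p = 4.51e-05) and changed by −0.45 in *Stpfld252*, not called.

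**Figure D5:**
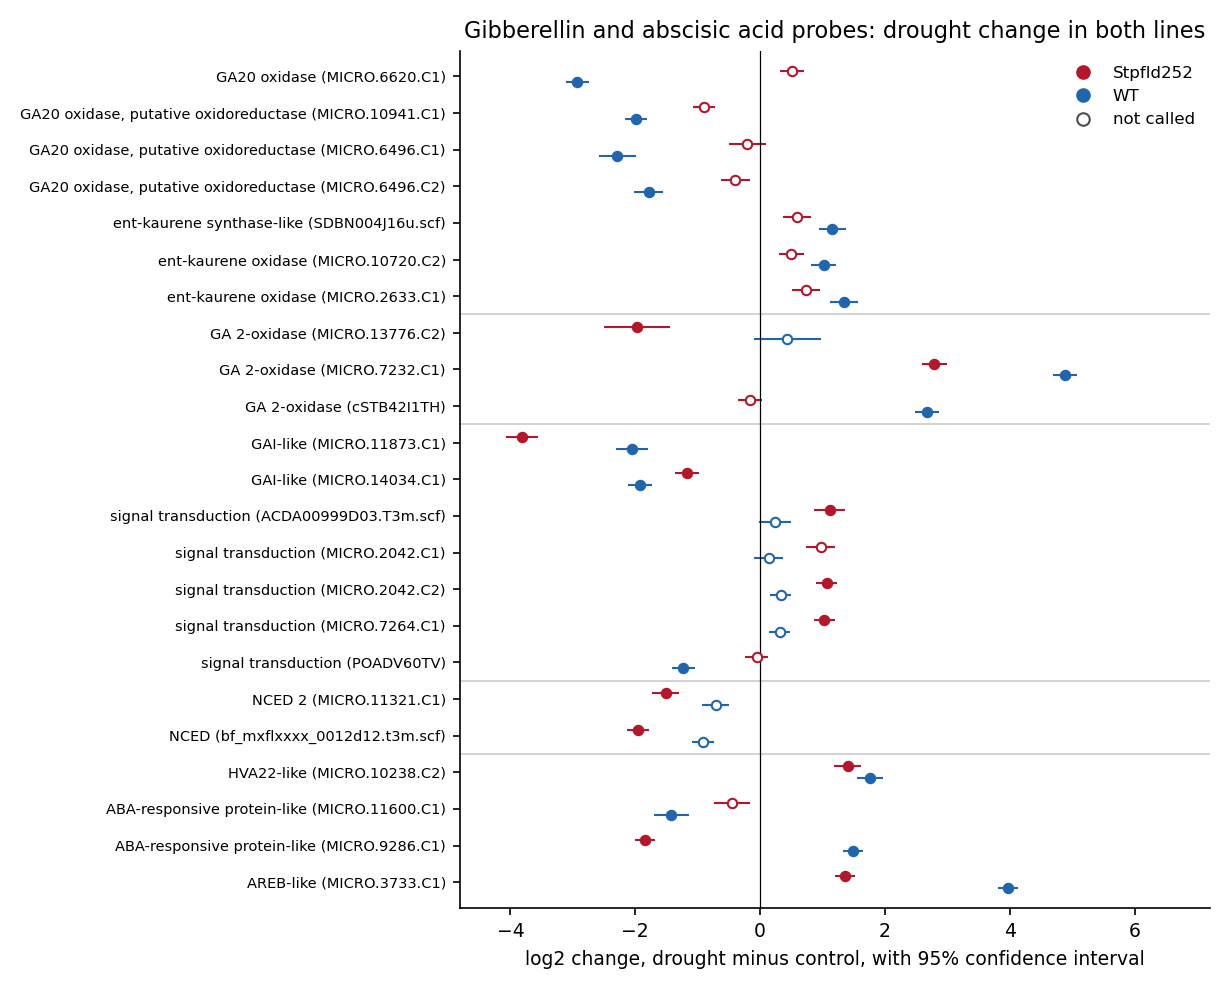
Log2 change between drought and control with its 95% confidence interval in *Stpfld252* (red, upper) and WT (blue, lower) for probes of gibberellin synthesis, inactivation and signalling and of ABA synthesis and response, with open points for changes not called. The GA20 oxidase MICRO.6620.C1 lay at 0.51 in *Stpfld252* and −2.93 in WT, while the GAI-like probe MICRO.11873.C1 lay below 0 in both.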

How the data were processed

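The authors read each array with Agilent Feature Extraction (11.5.1.1 per the file headers, which differs from the version in the paper's methods) and deposited median intensities for spots and their surroundings, not normalized between arrays, with a table of normalized log2 values, which was used here only as an alternative. Median intensities were corrected with limma 3.58.1 (R 4.3.3; normexp, offset 0) and quantile normalized on the log2 scale. A probe was tested if its signal was over 10% higher than 95% of the 153 negative controls on both arrays of at least 1 group. All 8 arrays entered 1 fit with 4 group means (lmFit and eBayes), with Benjamini-Hochberg adjustment over all 36435 probes within a comparison. The steps were tested on simulated data, and tables were read with Python 3.11.15.

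Probes named are those of the GAST1 contig and GAST/GASA family, the highest and lowest drought change in WT of each hormone list, the 5 nearest patterns, and neighbours in order of change. Members and lists were chosen with earlier results of these data known. Descriptions and categories came from the paper's supplementary tables, whose value columns were not used. For bounds, the floor was the 95th percentile of the negative controls, chosen after the values were seen because the lowest signal flagged well above background gave higher bounds. Alternatives were other offsets, no background correction, processed signals scaled to their 75th percentile, other normalizations, filters and priors, a test against a 1.2-fold change, a replicate block, and leaving out each array.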

Additional observations from a re-analysis of the deposited data

Results flagged for a closer look

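Of the 2 GAST1 and 5 other GAST/GASA family probes, 5 had an adjusted p under 0.05 for a difference of drought responses between the lines. Of all probes tested, 37.8% did, and the family list was drawn from probes called on these arrays. For MICRO.11045.C2 the difference stayed under the 2-fold limit. The response of *Stpfld252* minus that of WT was 0.87 on the log2 scale for MICRO.11045.C2 (adjusted p = 0.00762) and 1.39 for MICRO.11045.C1 (adjusted p = 0.0291), whose drought signals were not well above background. In the GAST/GASA family it was 2.18 for MICRO.63.C4 (adjusted p = 2.54e-05), −1.97 for snakin2, MICRO.7594.C1 (adjusted p = 1.54e-05), and −1.15 for RSI-1, MICRO.13238.C1 (adjusted p = 0.00201). With 2 arrays per group, no single array could be tested for standing apart from its group.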

How the results depend on the processing

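The drought repression of MICRO.11045.C2 and of MICRO.11045.C1 kept its direction and its call in both lines under all 17 alternatives and without each array in turn. For MICRO.11045.C2 the alternatives ranged between −8.62 and −7.24 in *Stpfld252* and between −9.60 and −7.92 in WT on the log2 scale, and for MICRO.11045.C1, at the background in drought, between −6.40 and −1.73 in *Stpfld252* and between −7.88 and −2.59 in WT. The number of family, gibberellin and ABA probes called stayed within 1.5 times, apart from *Stpfld252* against WT in control (12, and 7 with an offset of 50).

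The comparisons of the lines depended more on the processing, and the cause was not tested. For MICRO.11045.C2 the difference of drought responses passed 2-fold with median scaling (1.24), cyclic loess (1.37) and scaling on the spike-in spots (1.75), and lay between 0.68 and 1.05 without 1 array. The difference of the lines in drought passed it with cyclic loess (1.00). Its range was 0.18 to 1.00 over the alternatives, with adjusted p of up to 0.473, and that of the lines in control −0.76 to −0.18, with adjusted p of up to 0.676. For MICRO.11045.C1 in control, the difference was not called with offsets of 16 (−0.95) and 50 (−0.82), no background correction (−0.86), median scaling (−1.03), cyclic loess (−1.005), spike-in scaling (−1.37), no normalization (−0.79), the deposited log2 table (−0.94) or a test against 1.2-fold (−1.02), and ranged between −1.18 and −0.85 without 1 array. Its difference of responses was not called with an offset of 50 (0.87), no background correction (0.93), median scaling (2.98), spike-in scaling (3.48), no normalization (2.70), no filter (1.39) or the 1.2-fold test (1.39), and ranged between 0.99 and 1.79 without 1 array. In drought its difference between the lines was called with cyclic loess (1.54) and ranged between −0.031, without the first WT drought array, and 0.78, all from signals at the background. A filter that asked for signal on all 8 arrays left MICRO.11045.C1 untested, and a fit of the 4 arrays compared gave no difference of responses. Spike-in scaling moved the median of all probes by 0.38 in *Stpfld252* drought, −0.25 in WT drought and 0.60 in the difference of responses.

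Over all probes, an offset of 50 called 3333 in *Stpfld252* drought, against 5108, 1313 against 2214 between the lines in control, 2690 against 4116 in drought, and 2922 against 4518 for the responses. Between the lines in control, no background correction called 1462 and the processed signals 3454.

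The replicate numbers did not pair the samples (r of deviations −0.112 to 0.129 over the group pairs). With the replicate number as a block, MICRO.11045.C2 changed by −8.19 in *Stpfld252* (adjusted p = 1.7e-06) and −9.05 in WT (adjusted p = 2.51e-07), and no call of either GAST1 probe changed. The block called 6862 probes in WT drought, against 6857 without it and 6856 with the numbers crossed in WT, a setting added after the data were seen.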
